A study of Mus musculus with 192 samples.

Results

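Alpha-1 antitrypsin is encoded in the mouse by a cluster of near-identical genes, and the 5 members Serpina1a, Serpina1b, Serpina1c, Serpina1d and Serpina1e, of 54752 genes in the expression table, are described here across 9 tissues. They were chosen by gene name, from their genotype and flight differences in kidney and liver in an earlier pass through the same data, so their differences between groups are given as descriptions, with SE and without p-values. RNA-seq was run on male mice of the C57BL/6J background (C57BL/6 in the labels), 12 weeks old per the labels. They were either wild type (WT) or carried a germline knockout of Nrf2 (Nrf2-KO, gene symbol Nfe2l2). They either lived on the International Space Station (Flight, FL) or were housed on the ground (Ground control, GC). Per the paper, the flight mice had the labelled age near launch and stayed in orbit for about a month. Their tissues were taken after the return to Earth and behavioural tests, so these mice were older when sampled than the labels state. The 4 groups are written FL_WT, FL_KO, GC_WT and GC_KO. Each group held 6 mice in liver (Liv), spleen (Spl), thymus (Thy), cerebrum (Cbr), temporal bone (TpB), epididymal white adipose tissue (eWAT) and interscapular brown adipose tissue (iBAT), and 3 mice in kidney (Kid) and mandibular bone (MdB).

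Flight mouse 04, an FL_KO animal with intestinal bleeding, was left out, a choice that the study also made, so that FL_KO held 5 mice, or 2 in MdB, and 184 of 192 libraries were used. Mice of both the flight and the ground experiment were taken without a hepatic shunt, a liver vessel anomaly of Nrf2-deficient mice. Flight and ground mice were kept in separate experiments at different places and dates, so flight cannot be told apart from those differences, and a mouse number shared by FL and GC does not denote one animal. Each library held between 8007523 and 16308175 counts, with thymus the shallowest. In kidney, Nfe2l2 stood at 53.4, 63.1, 24.6 and 31.1 TPM (a length-corrected share of a library's transcripts, scaled to a fixed total per library) in GC_WT, FL_WT, GC_KO and FL_KO. In liver the same order gave 43.0, 55.7, 15.4 and 21.0 TPM, and edgeR's quasi-likelihood test with Benjamini-Hochberg adjustment called Nfe2l2 lower in Nrf2-KO in both tissues (adjusted p = 3.4e-05 in kidney and 4.77e-10 in liver for GC_KO vs GC_WT). The tissue labels held for defining markers: Alb, the plasma protein albumin, had a median of 46083 TPM in liver and 5.03 TPM in kidney, whereas Kap, an androgen-responsive protein of proximal tubules, had a median of 59668 TPM in kidney and was listed at 0 in all 23 liver libraries.

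Alpha-1 antitrypsin is a serpin, a suicide inhibitor that offers proteases a bait loop, the reactive site loop, and is trapped in a covalent complex once the loop is cut. In man it is a major plasma protein made by hepatocytes, its best-known target is neutrophil elastase, and its loss leads to emphysema. Mice carry several copies whose loops differ, and the copies are not interchangeable as inhibitors. Nrf2 is the transcription factor that induces detoxifying and antioxidant genes through antioxidant response elements.

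The 5 genes lie on the minus strand of chromosome 12 (GRCm38, GENCODE vM21), with Serpina1b at chr12:103728156-103830373, Serpina1d at chr12:103763594-103773592, Serpina1a at chr12:103853589-103863562, Serpina1c at chr12:103894926-103904887 and Serpina1e at chr12:103946931-103958975. The annotated span of Serpina1b contains all of Serpina1d and the pseudogene Gm8893. Their coding sequences are 1242 bases each and 96.3 to 98.5% identical between pairs, with 86 variable positions. The following 60 bases (positions 1102 to 1161 of the coding sequence, GENCODE transcripts) are shown because they encode part of the reactive site loop and hold 18 of those 86 positions, against a median of 4 in windows of this length. Capitals mark bases that differ from the commonest base of the 5 genes at that position, and 2 of the 18 positions have a tie for the commonest base.
Serpina1a: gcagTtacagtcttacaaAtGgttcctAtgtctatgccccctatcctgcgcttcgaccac
Serpina1b: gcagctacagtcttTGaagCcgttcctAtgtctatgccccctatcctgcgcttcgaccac
Serpina1c: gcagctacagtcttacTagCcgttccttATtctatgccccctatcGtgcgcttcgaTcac
Serpina1d: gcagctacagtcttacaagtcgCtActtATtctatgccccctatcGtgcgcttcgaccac
Serpina1e: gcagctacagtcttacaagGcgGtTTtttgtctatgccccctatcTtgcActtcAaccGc
Such likeness limits how reads can be assigned. Of all 76-base stretches of the annotated transcripts, the share found in no other gene was 51.0% for Serpina1a, 81.3% for Serpina1b, 34.2% for Serpina1c, 63.4% for Serpina1d and 80.7% for Serpina1e. Outside the cluster the only gene that shared such stretches was Gm8893, which had a median of 51.2 TPM in liver and was listed at 0 to 0.28 TPM in kidney. The deposited counts are estimates that split shared reads, and 96.0 to 100% of the members' values above 0 were not whole numbers, with a tolerance of 0.005, in 8 tissues, compared with 13.1 to 15.8% of all gene values above 10 across the 9 tissues. Levels of single members, above all Serpina1c and Serpina1a, are therefore uncertain, and the sum of the 5 is the value least touched by that split.

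The promoters are alike as well. The stretches of 90 bases below (RefSeq, GRCm38.p6, minus strand) are shown because they hold the bases that set the promoters apart just upstream of the longest run shared by all 5, which is 59 bases long and supplies the last 30 bases shown. Capitals mark bases that differ from the commonest base of the 5 genes at that position. All 5 members matched a RefSeq promoter.
Serpina1a, chr12:103863650-103863739: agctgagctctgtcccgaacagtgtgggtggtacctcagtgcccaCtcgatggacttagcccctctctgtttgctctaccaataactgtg
Serpina1b, chr12:103738225-103738314: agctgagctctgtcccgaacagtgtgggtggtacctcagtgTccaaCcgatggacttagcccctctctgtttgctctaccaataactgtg
Serpina1c, chr12:103904987-103905076: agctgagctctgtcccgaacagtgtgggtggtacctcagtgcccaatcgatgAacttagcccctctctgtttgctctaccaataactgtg
Serpina1d, chr12:103773659-103773748: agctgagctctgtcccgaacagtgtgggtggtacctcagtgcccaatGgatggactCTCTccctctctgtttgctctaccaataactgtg
Serpina1e, chr12:103956985-103957074: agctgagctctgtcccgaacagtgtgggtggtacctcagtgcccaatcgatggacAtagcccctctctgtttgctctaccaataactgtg
The 10 variable positions gave 5 capitals in Serpina1d, 2 in Serpina1b and 1 in each of the other members. Over these bases Serpina1d differed from the other members at 6 or 7 positions, and the other 4 differed from one another at 2 or 3. The stretches end 26 to 37 bases before the annotated start in Serpina1a, Serpina1b, Serpina1c and Serpina1d and 88 bases before it in Serpina1e. Motifs were searched on both strands of the 300-base promoters of 32851 RefSeq entries. The antioxidant response element core TGACNNNGC was in 0 of 5 members and in 12.4% of promoters, the AP-1 site TGACTCA in 4 of 5 and in 5.2%, and the C/EBP letters TTGCNNAA in 4 of 5 and in 10.8%. These are matches of letters, and the motifs TGACNNNGC and TGACTCA can overlap. The 5 copies are near-identical, so their counts are not independent. The AP-1 matches began at −240 to −229 relative to the annotated start, near the upstream edge of the window. In Serpina1e the start lies further from the shared stretch, so the same place falls outside its window and was not searched. The C/EBP match of Serpina1a began at 24, after the start, against −161, −149 and −211 in Serpina1b, Serpina1d and Serpina1e.

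In kidney, Serpina1 transcripts were most abundant in WT mice and several fold lower in Nrf2-KO mice, both on the ground and in flight. The sum of the 5 genes was 256, 255 and 263 TPM in the 3 GC_WT mice, 383, 397 and 356 TPM in FL_WT, 46.5, 51.4 and 36.5 TPM in GC_KO and 37.8, 51.8 and 89.4 TPM in FL_KO. Every WT kidney lay above every Nrf2-KO kidney. How many of all genes keep their groups apart in this way was not counted, so a lack of overlap, here and below, is a description only. Fitted on the counts, the sum was 5.79-fold lower in GC_KO than in GC_WT (log2 fold change −2.53 ± 0.22 SE, n = 3 per group) and 6.50-fold lower in FL_KO than in FL_WT (−2.70 ± 0.22). In bulk tissue, fewer cells of a type and less RNA per cell cannot be told apart.

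Serpina1d was the main kidney member, with 66.9% of the summed count in GC_WT. Its level was 171, 163 and 180 TPM in GC_WT, 250, 270 and 241 TPM in FL_WT, 32.5, 34.1 and 25.4 TPM in GC_KO and 25.2, 35.3 and 37.9 TPM in FL_KO. The WT and Nrf2-KO values did not overlap, and the log2 fold change was −2.49 ± 0.13 on the ground and −2.97 ± 0.14 in flight. Serpina1a, the second kidney member, showed the larger genotype difference. It stood at 67.0, 76.8 and 65.4 TPM in GC_WT, 110, 101 and 93.1 TPM in FL_WT, 5.65, 7.72 and 3.92 TPM in GC_KO and 6.11, 7.78 and 15.5 TPM in FL_KO. That is a log2 fold change of −3.60 ± 0.26 on the ground, or 12.2-fold, and −3.40 ± 0.25 in flight. Its share of the summed count was accordingly lower in Nrf2-KO, at 26.6% ± 2.67 (SD, n = 3) in GC_WT and 12.4% ± 2.13 (SD, n = 3) in GC_KO, while the share of Serpina1d was 66.9% ± 2.38 and 69.0% ± 1.93.

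The other members were low in kidney and differed less. Serpina1b was 12.3, 12.3 and 12.1 TPM in GC_WT, 18.1, 17.6 and 17.8 TPM in FL_WT, 4.57, 4.36 and 4.68 TPM in GC_KO and 2.55, 3.95 and 10.8 TPM in FL_KO. Again no Nrf2-KO kidney reached a WT kidney, and the log2 fold change was −1.44 ± 0.32 on the ground and −1.67 ± 0.31 in flight. The flight value includes FL_KO mouse 11, the one at 10.8 TPM, and was −2.35 for Serpina1b once the count that its ratio to Alb in liver would give was taken off, an alternative chosen after seeing the data. Serpina1c was 3.13 to 6.08 TPM in GC_WT, 4.26 to 8.33 TPM in FL_WT, 2.46 to 5.22 TPM in GC_KO and 3.89 to 17.6 TPM in FL_KO, so its groups overlapped, with −0.28 ± 0.53 on the ground and 0.57 ± 0.49 in flight. Serpina1e, a major liver member, was 0.11 to 0.24 TPM in WT kidneys of both conditions, listed at 0 in all 3 GC_KO kidneys, and 0.10, 0.22 and 7.48 TPM in FL_KO, too low in counts to be tested. Of the 4 members tested, 3 (Serpina1a, Serpina1b and Serpina1d) were called lower by edgeR in GC_KO vs GC_WT, where 1.61% of 15114 genes were called, and the same 3 in FL_KO vs FL_WT, where 1.83% were called. Serpina1b was not called in 9 of the 12 fits on the ground contrast that left out 1 kidney, namely each GC_WT, GC_KO or FL_WT mouse, nor in 2 of 12 in flight, those without FL_KO mouse 02 or FL_WT mouse 10. Its call was also lost on the ground in both limma fits and in flight with only the 2 groups fitted, while with no filter on low counts Serpina1e was called as well in FL_KO vs FL_WT, making 4 members.

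**Figure D1:**
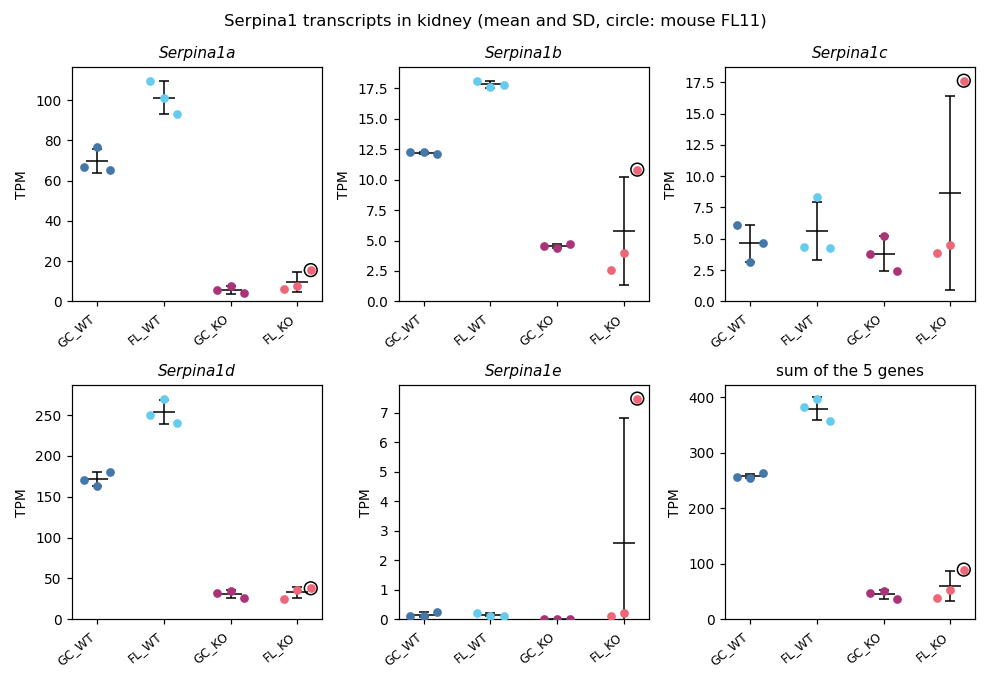
Levels of the 5 Serpina1 genes and of their sum in kidney, in TPM on axes from 0, for each mouse of GC_WT, FL_WT, GC_KO and FL_KO (3 per group). Bars give the mean and SD, and the circle marks FL_KO mouse 11, whose Serpina1e level of 7.48 TPM stands far above the other 11 kidneys; Serpina1a, Serpina1b and Serpina1d of all WT kidneys lie above those of all Nrf2-KO kidneys.

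Between flight and ground, the WT kidneys differed by less than between genotypes. The sum was 1.39-fold higher in FL_WT than in GC_WT (log2 fold change 0.48 ± 0.20), with 379 ± 20.8 against 258 ± 4.11 TPM (SD, n = 3 each) and no overlap. Serpina1d (0.49 ± 0.12), Serpina1a (0.47 ± 0.21) and Serpina1b (0.48 ± 0.29) differed by a like amount and Serpina1c by 0.21 ± 0.51. In edgeR 0 of the 4 tested members were called, where 0.119% of all genes were. Under an unadjusted p of 0.05 were 2 members and 6.64% of all genes, and DESeq2 called 1 member, Serpina1d, and 0.45% of all genes. In Nrf2-KO the sum was 0.31 ± 0.21 higher in FL_KO than in GC_KO, Serpina1d was 0.02 ± 0.13 and Serpina1a was 0.67 ± 0.29. Here too 0 of 4 were called by edgeR, where 0.159% of all genes were, and 0 by DESeq2, while 1 member and 12.8% of all genes were under an unadjusted p of 0.05. The difference of the 2 flight contrasts (the interaction) was called by edgeR for 0 of 4 members, 1 of them under an unadjusted p of 0.05, and for 0.0% of all genes, 511 of 15114 being under an unadjusted p of 0.05; DESeq2 called 0 members and 3 genes. The contrasts by genotype and by flight share their control mice.

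One kidney stood apart. FL_KO mouse 11 had an Alb count of 901 against 60 to 143 in the other 11 kidneys, an Apoa1 count of 92 against 6 to 23 and an Ahsg count of 87 against 0 to 7, all being hepatocyte genes. Its Serpina1e count was 88.3, close to the 92.7 that its Alb count would bring at the liver ratio of Serpina1e to Alb in FL_KO. In the other 11 kidneys Serpina1e was 0 to 2.91 counts, below the 7.88 to 28.4 counts that the same ratio would give. The part that RNA or cells of liver origin played in these kidneys was not tested. Over the 12 hepatocyte markers the summed level was 121 to 178 TPM in GC_WT, 145 to 192 TPM in FL_WT, 164 to 240 TPM in GC_KO and 179 to 281 TPM in FL_KO, and Cps1 was listed at 0 in all GC_WT and GC_KO kidneys. That marker level can be high where Alb is near absent: it was 1131 to 1601 TPM in GC_WT cerebrum, with an Alb median of 0.08 TPM over all Cbr libraries. Without mouse 11 the Serpina1 sum in FL_KO vs GC_KO was −0.04 and in FL_KO vs FL_WT −3.05. With each member's count lowered by what the liver ratio to Alb would give, an alternative chosen after seeing the data, the sum was −2.60 in GC_KO vs GC_WT, −3.04 in FL_KO vs FL_WT, 0.48 in FL_WT vs GC_WT and 0.05 in FL_KO vs GC_KO, with the same 3, 3, 0 and 0 members called.

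In liver the picture was another one: Serpina1e varied over the groups, and the other members were nearly level. The sum of the 5 was 42832 ± 5046 TPM in GC_WT, 33324 ± 1813 in FL_WT, 48407 ± 2517 in GC_KO (SD, n = 6 each) and 37941 ± 3930 TPM in FL_KO (SD, n = 5). It was 1.32-fold lower in FL_WT than in GC_WT (log2 fold change −0.41 ± 0.07) and 1.41-fold lower in FL_KO than in GC_KO (−0.49 ± 0.07).

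Serpina1e ranged from 11044 to 21987 TPM in GC_WT with a median of 14022, from 3329 to 6888 TPM in FL_WT with a median of 5544, from 16028 to 22500 TPM in GC_KO with a median of 19834, and from 4592 to 10952 TPM in FL_KO with a median of 9744. Every flight liver lay below every ground liver. Serpina1e was 2.90-fold lower in FL_WT vs GC_WT (log2 fold change −1.54 ± 0.19) and 2.55-fold lower in FL_KO vs GC_KO (−1.35 ± 0.21). Its share of the summed count went from 33.0% ± 5.90 in GC_WT to 15.0% ± 3.28 in FL_WT, and from 39.1% ± 3.52 in GC_KO to 21.4% ± 5.02 in FL_KO (SD, n = 6, 6, 6 and 5). Mouse FL04, left out above, had 2659 TPM, the lowest Serpina1e level of all livers, and a share of 8.37%.

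Serpina1d, the liver member with the lowest median in each group, was 4202 to 5258 TPM in GC_WT with a median of 4365, 3784 to 4130 TPM in FL_WT with a median of 4013, 3875 to 4811 TPM in GC_KO with a median of 4436, and 3491 to 4281 TPM in FL_KO with a median of 3764. The WT groups did not overlap and the Nrf2-KO groups did, with log2 fold changes of −0.23 ± 0.06 and −0.36 ± 0.06. Serpina1a, Serpina1b and Serpina1c stayed within −0.09 and 0.01 in FL_WT vs GC_WT and within −0.15 and −0.02 in FL_KO vs GC_KO. In both flight contrasts 2 of 5 members, Serpina1d and Serpina1e, were called lower by edgeR, where 3.45% of 13433 genes were called in WT and 3.34% in Nrf2-KO. DESeq2 called the same 2 in WT, where it called 5.42% of all genes, and 3 in Nrf2-KO, with Serpina1b added, where it called 4.84%. In Nrf2-KO 4 of 5 members and 15.4% of all genes were under an unadjusted p of 0.05.

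The small flight differences turned with the scale. On log2(TPM + 1) with limma the median of all genes was 0.08 in FL_WT vs GC_WT and 0.15 in FL_KO vs GC_KO, against 0.00 and 0.01 on counts, and the genes called split into 519 higher and 100 lower in WT and 1302 and 151 in Nrf2-KO, against 206 and 257 and 176 and 272 on counts. On that scale Serpina1a and Serpina1b were 0.00 and 0.01 in FL_KO vs GC_KO and Serpina1c 0.13, while Serpina1e stayed at −1.49 in WT and −1.25 in Nrf2-KO and Serpina1d at −0.17 and −0.21. The call of Serpina1d in WT was lost on that scale, with mouse FL04 included, with no filter on low counts and with only the 2 groups in the fit.

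**Figure D2:**
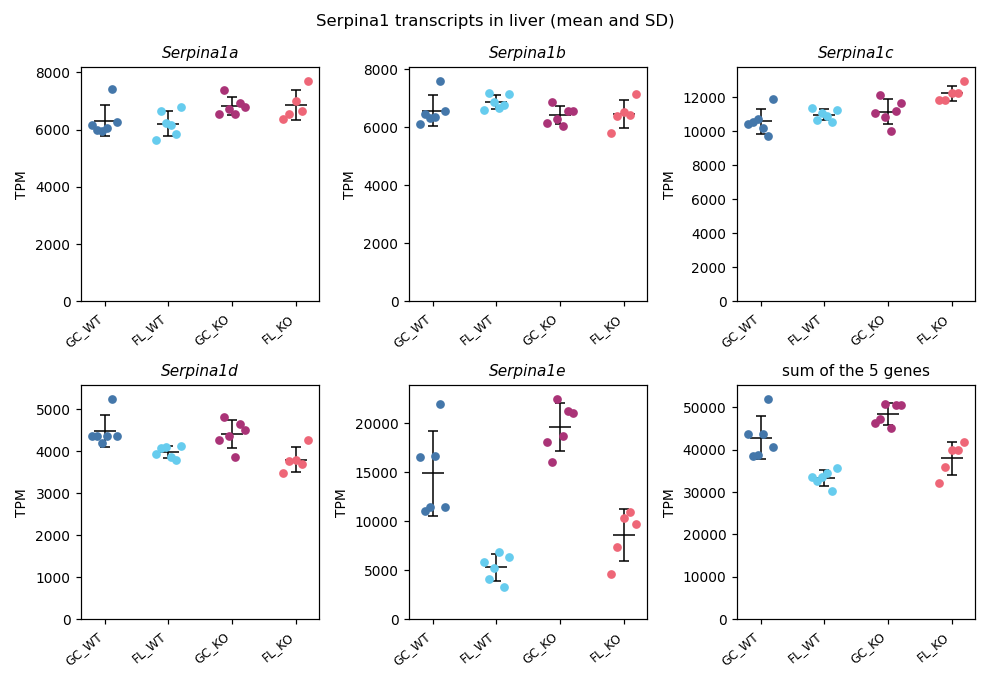
Levels of the 5 Serpina1 genes and of their sum in liver, in TPM on axes from 0, for each mouse of GC_WT, FL_WT, GC_KO (6 each) and FL_KO (5). Bars give the mean and SD; in the panel of Serpina1e all flight mice, at 3329 to 10952 TPM, lie below all ground mice, at 11044 to 22500 TPM.

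By genotype the liver differed little. Serpina1e was 0.40 ± 0.19 higher on the log2 scale in GC_KO than in GC_WT, with overlapping groups, and 0.59 ± 0.20 higher in FL_KO than in FL_WT, again with overlap. The sum was 0.17 ± 0.07 and 0.08 ± 0.07 higher, and the other members lay between −0.19 and 0.11 in both contrasts. With edgeR 0 of 5 members were called in GC_KO vs GC_WT, where 2.64% of genes were, and DESeq2 called 0, while 1 member and 13.4% of genes were under an unadjusted p of 0.05. In FL_KO vs FL_WT edgeR called 0 of 5, where 3.65% of genes were called, and 3 members and 17.3% of genes were under an unadjusted p of 0.05. DESeq2 called 2 members there, Serpina1b and Serpina1d, both lower, and 5.05% of genes. Without FL_KO mouse 01, which had the lowest Serpina1e level of its group, edgeR called 1 member, Serpina1e. The interaction was called by edgeR for 0 of 5 members, with 0 under an unadjusted p of 0.05, and for 0.0% of genes, 542 of 13433 being under an unadjusted p of 0.05; DESeq2 called 0 members and 1 gene.

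**Figure D3:**
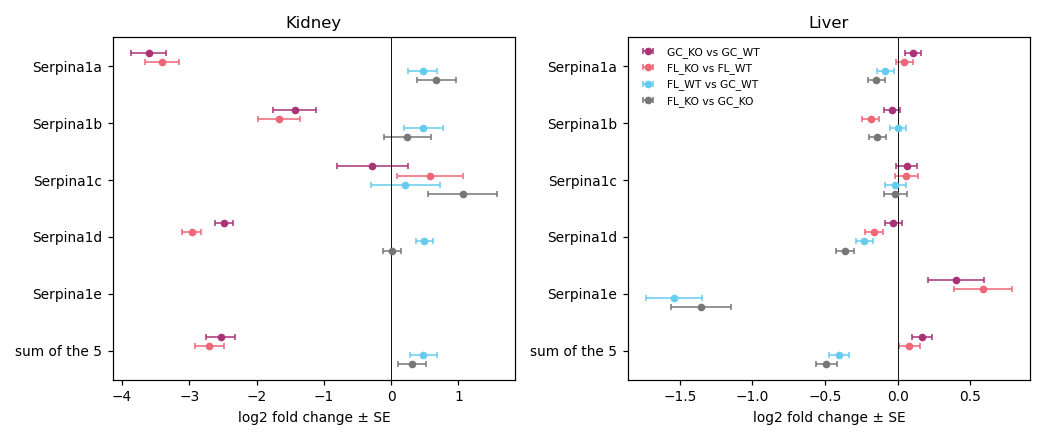
Log2 fold changes with SE from edgeR on expected counts for the members and their sum in kidney (left) and liver (right), in the 4 contrasts given by colour. In kidney the genotype contrasts lie at −1.44 to −3.60 for Serpina1a, Serpina1b and Serpina1d; in liver the flight contrasts of Serpina1e lie at −1.54 and −1.35 and those of the other members between −0.36 and 0.01, and Serpina1e was too low in kidney to be tested.

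The division of the cluster between its members differed between liver and kidney. With all liver libraries pooled, Serpina1e held 29.0% of the summed count, Serpina1c 27.6%, Serpina1b 16.7%, Serpina1a 16.1% and Serpina1d 10.6%. The order of the first pair turned when each library had equal weight, with a mean share of 28.4% for Serpina1c and 27.4% for Serpina1e, whose share ran from 15.0% in FL_WT to 39.1% in GC_KO. In the pooled kidneys the order was Serpina1d with 66.4%, Serpina1a with 24.7%, Serpina1b with 5.48%, Serpina1c with 3.0% and Serpina1e with 0.356%. Set against Alb, the kidney counts of the cluster were 28 times what the liver ratio would give. That figure was 175 for Serpina1d, 40.5 for Serpina1a, 8.88 for Serpina1b, 2.81 for Serpina1c and 0.395 for Serpina1e. These pooled values lean on FL_KO mouse 11, which held 88.3 of the 104 Serpina1e counts and the Alb count of 901. Without it, an alternative chosen after seeing the data, the ratio was 45.6 for the sum, 285 for Serpina1d, 69.9 for Serpina1a, 13.9 for Serpina1b, 3.80 for Serpina1c and 0.0909 for Serpina1e, and the share of Serpina1e was 0.0552%.

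In the remaining tissues the medians of the cluster, over the mice of all groups, were below those of liver and kidney. The sum was 2.56 to 628 TPM in eWAT with a median of 12.2, 0.19 to 95.6 TPM in iBAT with a median of 1.95, 21.3 to 128 TPM in Spl with a median of 30.7 and 9.59 to 97.0 TPM in MdB with a median of 14.9. It was 4.85 to 54.0 TPM in TpB with a median of 10.1, 0.08 to 19.6 TPM in Thy with a median of 4.07, and 0 to 1.27 TPM in Cbr with a median of 0.13. From high to low the medians thus run Liv, Kid, Spl, MdB, eWAT, TpB, Thy (the only rRNA-depleted libraries), iBAT and Cbr, where Liv and Kid do not overlap with each other, while the ranges of neighbours from Kid to Cbr do. The summed count was 0.883 to 1.57 times that expected from Alb at the liver ratio in Thy, eWAT, MdB, iBAT, TpB and Spl, and the largest single ratios were 2.76 for Serpina1b in Spl and 2.17 for Serpina1d in TpB. In Cbr it was 2.62 for the sum and 7.89 for Serpina1d, on 41 and 13.9 counts over all 23 libraries together. The part that RNA or cells of liver origin played in these tissues was not tested. In spleen all 5 members were present in all 23 libraries, with Serpina1b at 6.68 to 24.2 TPM.

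No member passed the filter in Cbr, and in the other 6 of these tissues 120 tests were made over the 4 contrasts, with log2 fold changes from −4.60 to 3.20. Of these, 1 was called, against 5.27% of all gene tests in the 7 tissues. It was Serpina1d in thymus, 2.67 higher in FL_WT than in GC_WT at levels of 0.29 to 2.14 and 0 to 0.53 TPM. With mouse number as a block, Serpina1b was called there in its place. In that contrast 3721 of 16307 genes were called, while FL_WT vs GC_WT in MdB had 0 of 16361, so the pooled 5.27% does not stand for each contrast. The 5 members lay at 1.88 to 2.83 in MdB FL_WT vs GC_WT, with 0 called. In Spl FL_WT vs GC_WT they lay at −1.47 to −0.55, again with 0 called, where 366 of 16170 genes were. The widest spread was in eWAT, where the sum had a median of 41.4 TPM in GC_WT, 10.9 in FL_WT, 84.1 in GC_KO and 5.79 in FL_KO, with a highest value of 284, 347, 628 and 62.4 TPM. Alb in eWAT had medians of 46.5, 18.8, 103 and 23.8 TPM in the same groups, so that in flight it was higher in Nrf2-KO while the sum was lower. The GC_KO median of the sum in eWAT, 84.1 TPM, lay above every GC_KO kidney. The order of tissues given above, over all groups, thus does not hold within GC_KO.

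**Figure D4:**
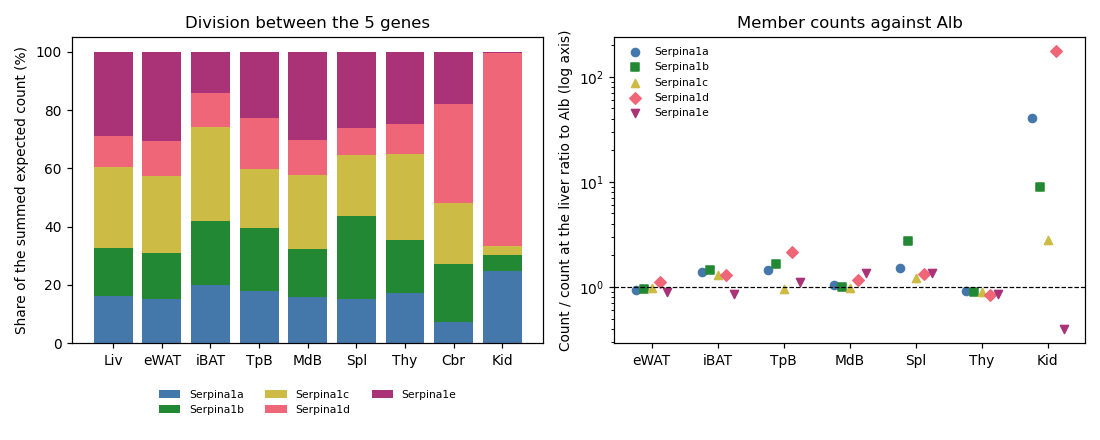
Left, the share of each member in the summed expected count of the 5 genes per tissue (percent, stacked bars, libraries pooled). Right, each member's summed count divided by the count that the liver ratio to Alb would give (log axis, dashed line at 1); kidney members spread from 0.395 for Serpina1e (0.0909 without FL_KO mouse 11) to 175 for Serpina1d, whereas those of the other 6 tissues shown stay at or below 2.76. Cbr, with 41 counts in all, is not drawn on the right.

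Among the other genes of the locus, 19 further Serpina genes of chromosome 12 were followed. In kidney 2 of the 19 could be tested, and Serpina1f, the neighbour of Serpina1b, rose in GC_KO vs GC_WT (0.64 ± 0.09, adjusted p = 0.0018 in edgeR), from 103 ± 5.28 to 164 ± 23.5 TPM (SD, n = 3 each). It thus went opposite to the 3 members called lower beside it, and it was listed at 0 in all livers. The other tested neighbour was not called and was lower, since the median log2 fold change of the 2 was −0.25 in GC_KO vs GC_WT. In FL_KO vs FL_WT that median was −0.59, and 0 of the 2 were called by edgeR. Serpina1f had a mean of 126 TPM in FL_WT and 157 TPM in FL_KO. In liver 11 of the 19 were tested. In flight Serpina5, a protein C inhibitor, fell in WT (−1.76 ± 0.42, edgeR adjusted p = 0.021) and Nrf2-KO (−2.34 ± 0.50, adjusted p = 0.0093) at levels under 1 TPM. Serpina3k fell in Nrf2-KO (−0.44 ± 0.10, adjusted p = 0.011), Serpina3m rose in WT (0.55 ± 0.12, adjusted p = 0.013), and in all 3 of 11 passed in each genotype. By genotype on the ground 0 of 11 were called by edgeR, whereas Serpina12, named after its value was seen, fell in FL_KO vs FL_WT (−2.22 ± 0.49, adjusted p = 0.0091).

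Of 15 genes listed as other plasma protease inhibitors, 14 were tested in liver and 8 in kidney. Serpina7, the thyroxine-binding globulin, a serpin of that list that carries hormone and does not inhibit proteases, rose in liver in both flight contrasts (1.49 ± 0.33 in WT, adjusted p = 0.014, and 1.52 ± 0.35 in Nrf2-KO, adjusted p = 0.014, edgeR), from 9.66 to 27.7 TPM and from 6.48 to 20.1 TPM. In kidney the only call was Pzp, named after its value was seen, lower in FL_KO vs FL_WT (−0.81 ± 0.18, edgeR adjusted p = 0.041). Transcripts of the neutrophil proteases Elane, Prtn3 and Ctsg were near absent in both tissues, and the proteins were not measured. They summed to at most 0.22 TPM in kidney and 0.43 TPM in liver, and Elane was listed at 0 in all kidneys. The 6 neutrophil markers summed to at most 1.97 and 4.41 TPM. None of these 9 genes passed the filter in either tissue.

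Genes for handling secreted glycoproteins in the endoplasmic reticulum were mostly level. In kidney edgeR called 0 of 11 in any of the 4 contrasts, with 0 to 2 under an unadjusted p of 0.05. In liver Lman1, a cargo receptor that carries alpha-1 antitrypsin out of the endoplasmic reticulum, fell in GC_KO vs GC_WT (−0.34 ± 0.07, adjusted p = 0.0064) from 128 ± 9.54 to 99.96 ± 6.60 TPM (SD, n = 6 each), and in FL_KO vs FL_WT (−0.36 ± 0.08, adjusted p = 0.0059). Of the 9 listed liver-enriched factors and IL-6 signalling genes, among them Hnf4a, Cebpa and Stat3, 8 were tested and 0 were called by edgeR in any of the 4 contrasts of either tissue, with 0 to 2 under an unadjusted p of 0.05.

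Acute-phase genes, plasma proteins of inflammation to which alpha-1 antitrypsin belongs in man, did not share one direction with Serpina1e. In liver 4 of 13 rose in GC_KO vs GC_WT, led by Lcn2 (2.07 ± 0.43, edgeR adjusted p = 0.0056), Saa1 (2.34 ± 0.50, adjusted p = 0.0084) and Saa2 (1.95 ± 0.43, adjusted p = 0.0090). In FL_KO vs GC_KO 3 of 13 fell, Saa2 (−3.11 ± 0.49, adjusted p = 7.2e-04), Orm1 (−1.16 ± 0.22, adjusted p = 0.0039) and Saa1, and 1 rose. In FL_WT vs GC_WT 2 of 13 rose, with Hp, the haemoglobin carrier haptoglobin, at 0.63 ± 0.10 (adjusted p = 0.0017). In kidney 6 of 13 were tested, and Cp, the copper carrier ceruloplasmin, rose in flight in both genotypes (0.74 ± 0.08, adjusted p = 0.0026, in WT and 0.93 ± 0.08, adjusted p = 8.4e-04, in Nrf2-KO).

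The cells that could hold the cluster were followed by their markers. In liver 12 of 12 hepatocyte markers were tested, and in each flight contrast 1 rose and 1 fell: Apoh rose (0.45 ± 0.08, adjusted p = 0.0020, in WT) and Cps1, the first enzyme of the urea cycle, fell (−0.61 ± 0.10, adjusted p = 0.0020, in WT; edgeR). Alb was 46145 ± 6058 TPM in GC_WT and 46503 ± 4839 TPM in FL_WT (SD, n = 6 each). In kidney, of 13 proximal tubule markers 3 fell in GC_KO vs GC_WT and 10 were not called, Slc13a3 (−0.96 ± 0.10, adjusted p = 1.7e-04), Slc22a6 (−0.51 ± 0.09, adjusted p = 0.0074) and Slc7a13 (−0.53 ± 0.12, adjusted p = 0.043; edgeR). The same 3 were lower in FL_KO vs FL_WT. Under an unadjusted p of 0.05 in edgeR were 6 of 13 in GC_KO vs GC_WT, against 10.9% of all genes. In FL_KO vs FL_WT it was 7 of 13, against 13.2%. In either flight contrast 0 of 13 were called by edgeR, with 1 and 3 under an unadjusted p of 0.05. The defining marker Slc34a1 was 2610 ± 146 TPM in GC_WT and 2580 ± 135 TPM in GC_KO, Lrp2 was 239 ± 28.2 and 222 ± 11.7 TPM, and Kap was 64891 ± 2568 and 73606 ± 11958 TPM (SD, n = 3 each), and none of these 3 was called. The summed level of all 13 was 73875 to 79221 TPM in GC_WT and 72918 to 95737 TPM in GC_KO. Most of that sum is Kap, so it says little on the other markers. The part that these markers play in the Serpina1 difference was not tested.

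Of 9 hepatocyte markers tested in kidney 1 fell by genotype, Apoh, a plasma phospholipid-binding protein, at −1.38 ± 0.18 on the ground (adjusted p = 0.0010) and −1.41 ± 0.18 in flight (adjusted p = 7.2e-04; edgeR). Of 7 androgen-responsive kidney genes Cyp7b1, an oxysterol hydroxylase, fell in GC_KO vs GC_WT (−0.96 ± 0.11, adjusted p = 3.6e-04) and in FL_KO vs FL_WT, and Gusb fell in FL_WT vs GC_WT (−0.59 ± 0.10, adjusted p = 0.044). In liver Gusb fell in both flight contrasts (−0.32 ± 0.09, adjusted p = 0.047, in WT and −0.39 ± 0.09, adjusted p = 0.017, in Nrf2-KO) and Cyp7b1 in WT (−1.06 ± 0.27, adjusted p = 0.032). Of 5 adipocyte markers 1 was tested in liver, Cidec, which rose in FL_WT vs GC_WT (1.91 ± 0.49, edgeR adjusted p = 0.032). In kidney 3 adipocyte markers were tested with 0 calls in edgeR, their sum reaching 12.6 TPM in FL_KO. Of 6 thymic epithelium markers 3 were tested in kidney and 2 in liver, again with 0 calls in edgeR.

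The genes most like the cluster were ranked by Pearson's r with the summed members on log2(TPM + 1), as a description over samples that share tissue and groups. Over the 12 kidneys and 9465 genes with a mean of at least 5 TPM these were Slc38a3, a glutamine transporter (r = 0.983), Mfsd4b1 (0.979), Cd59a, a complement inhibitor (0.975), Apoh (0.971) and Ugt1a7c, a glucuronosyltransferase (0.971). Slc38a3 stood at 17.0, 22, 1.56 and 1.62 TPM in GC_WT, FL_WT, GC_KO and FL_KO, the same order of groups as Serpina1a, and Ugt1a7c at 306, 331, 150 and 148 TPM. Cd59a (chr2:104095801-104115354) lies on the chromosome of Nfe2l2 (chr2:75675513-75704641), whereas Slc38a3 is on chromosome 9, Mfsd4b1 on 10, Apoh on 11 and Ugt1a7c on 1. Over the 23 livers and 7977 genes they were Acsl4, a fatty acid-CoA ligase (r = 0.930), Gm5424 (0.911), Mpeg1, a pore-forming protein of macrophages (0.901), and the urea cycle genes Cps1 (0.895) and Ass1 (0.893). Ass1 was 2739, 1584, 3354 and 1758 TPM in GC_WT, FL_WT, GC_KO and FL_KO, lower in flight in both genotypes as Serpina1e was. Gm5424 shares its sequence with Ass1 as its pseudogene, so that its reads are uncertain. These genes were picked for their likeness out of all genes, and nothing on shared control follows from it.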

How the data were processed

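Libraries from poly(A) RNA, or from rRNA-depleted RNA in thymus, made with a strand-specific kit, were processed by the authors with bcl2fastq, STAR 2.6.1 and RSEM 1.3.1 on mm10, per the submitters' processing notes. The deposited values are RSEM expected counts and TPM per gene, both made by the authors with no pooling of mice, in which reads that fit several members are shared out by estimate. Another 192 columns held FPKM and were not used. The depth of 8007523 to 16308175 counts per library sets the precision.

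Expected counts were rounded and fitted per tissue over all 4 groups with edgeR 4.0.16 (TMM, filterByExpr, quasi-likelihood test, R 4.3.3), with group as the only term, calls at a Benjamini-Hochberg adjusted p under 0.05 over all genes tested, and SE from the fit; in a second table the 5 member rows were added into 1. The pipeline was tested on simulated data. DESeq2 1.42.0 (the tool of the study), RLE factors, no filter, limma 3.58.1 on log2(TPM + 1) and log2(TPM + 0.1) of genes with a mean of at least 5 TPM in a group, inclusion of FL04, fits of 2 groups, mouse number as a block and leaving out single mice were the alternatives. Genes were named by rule: the members, Nfe2l2, defining markers, at most 3 genes of each list called by genotype on the ground and at most 3 called in flight, by adjusted p, and the 5 most alike per tissue, exceptions being marked. Members and lists were chosen with earlier results of these data known. 1 gene of a list is not reported here. Mice are taken as separate animals from the labels. Numbers shared by FL and GC mice were checked as pairs: deviations of same-numbered livers correlated at 0.191 to 0.313 in 5 of 5 Nrf2-KO pairs, at 0.0148 to 0.266 in WT, and in kidney at 0.102 and 0.0575 in Nrf2-KO and 0.0008 in the 1 WT pair. In temporal bone the same check gave −0.449 to 0.701. Pairs of unlike numbers were not compared, and the labels name no shared batch, so whether same-numbered livers are paired was not tested.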

Additional observations from a re-analysis of the deposited data

Results flagged for a closer look

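In 12 of 48 tests (a tissue and group by the sum or, in liver, also by member), 1 mouse lay far from the others of its group, with a gap to the nearest over the range above Dixon's 95% limit. Chance gives about 2.4 of 48 independent tests on normally distributed values, but the liver tests share mice and are linked. TPM was used without a log, and every value flagged was the highest of its group. Skewed values would be flagged more often, so no excess over chance is read from the count. The 12 fall in 10 of 28 groups examined. Alb is given beside each, and its part in the difference was not tested. In iBAT the summed Serpina1 level was 50.3 TPM in FL_KO mouse 09 against at most 9.52 in its group, with Alb at 58.3 TPM against at most 9.27. In GC_KO mouse 02 it was 27.1 TPM against at most 2.98, with Alb at 22 against at most 0.95. In GC_WT mouse 03 it was 19.9 TPM against at most 4.52, with Alb at 15.4 against at most 3.10.

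In eWAT the sum was 62.4 TPM in FL_KO mouse 01 against at most 15.9, with Alb at 95.3 against at most 24.8. It was 347 TPM in FL_WT mouse 05 against at most 24.0, with Alb at 452 against at most 28.9, and 284 TPM in GC_WT mouse 10 against at most 74.6, with Alb at 254 against at most 68.7. In TpB the sum was 54.0 TPM in FL_WT mouse 05 against at most 15.6, with Alb at 49.7 against at most 15.5, and 35.1 TPM in GC_WT mouse 05 against at most 11.5, with Alb at 12.4 against at most 10.3. In Cbr it was 1.27 TPM in FL_WT mouse 10 against at most 0.40, with Alb at 0.85 against at most 0.16.

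In liver GC_WT mouse 08 had the highest level of 3 members, Serpina1a at 7432 TPM against at most 6275, Serpina1b at 7598 TPM against at most 6561 and Serpina1d at 5258 TPM against at most 4372. Its Alb level was 57850 TPM against at most 47210 in the other GC_WT livers.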

How the results depend on the processing

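The summed Serpina1 difference moved by less than the spread between mice (1 SD) in 123 refits, those that leave out 1 mouse of a group of 2 to 5 included, and by more in 4. These were kidney FL_WT vs GC_WT on log2(TPM + 1) and log2(TPM + 0.1), at 0.55 in both, and liver FL_KO vs GC_KO on the same scales, at −0.36 in both. The refits counted include those less the liver ratio to Alb, chosen after seeing the data. In kidney the SD was 0.44 in FL_KO vs GC_KO and 0.39 in FL_KO vs FL_WT, mouse 11 included, against 0.06 in FL_WT vs GC_WT. By that wide measure the values without FL_KO mouse 11, −0.04 and −3.05, counted as unmoved. The number of kidney members called in FL_WT vs GC_WT was 1 (Serpina1d) under DESeq2, with no filter and with only 2 groups fitted, and in FL_KO vs GC_KO 1 (Serpina1e) with no filter. In liver it was 1 in FL_WT vs GC_WT with FL04 included, in both limma fits, with no filter and with 2 groups, and 2 in FL_KO vs FL_WT under DESeq2. Over the other 7 tissues it was 5 under DESeq2, 0 in both limma fits and 4 with no filter. The DESeq2 calls in FL_WT vs GC_WT were Serpina1a in MdB and Serpina1c and Serpina1e in Spl. Those in GC_KO vs GC_WT were Serpina1a and Serpina1b in Spl. Serpina1d in thymus, the edgeR call, was not among them. Of the listed genes DESeq2 called 5 in kidney FL_WT vs GC_WT, 9 in kidney FL_KO vs GC_KO and 4 in liver FL_KO vs FL_WT, against 2, 1 and 2 by edgeR.

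Leaving out 1 mouse at a time gave a kidney sum of −2.66 to −2.39 in GC_KO vs GC_WT, −3.05 to −2.49 in FL_KO vs FL_WT, 0.45 to 0.53 in FL_WT vs GC_WT and −0.04 to 0.52 in FL_KO vs GC_KO, where the negative value is that without FL_KO mouse 11. Members called ranged from 2 to 3 in both kidney genotype contrasts, 0 to 1 in liver FL_KO vs FL_WT, and 1 to 3 over the other 7 tissues, the 3 being without FL_WT mouse 06. Single members moved beyond the spread in 24 refits and stayed within it in 534. With mouse number as a replicate block the sum was 0.36 in kidney FL_KO vs GC_KO, −0.41 in liver FL_WT vs GC_WT and −0.48 in liver FL_KO vs GC_KO, and the block changed no count of members called. Over all genes it raised the calls from 24 to 56 in kidney FL_KO vs GC_KO and from 463 to 751 in liver FL_WT vs GC_WT. WT kidneys share 1 number, so no block was fitted there.

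Counts over all genes moved more than those of members. Against 18 genes in kidney FL_WT vs GC_WT, DESeq2 and no filter gave 68 each and 2 groups 40. Against 24 in kidney FL_KO vs GC_KO, DESeq2 gave 190, no filter 175, limma 6 in both fits, 2 groups 1, and single mice left out 3 to 350, the highest without FL_KO mouse 11. Against 276 in kidney FL_KO vs FL_WT, DESeq2 gave 424, no filter 433, limma 179 and 175, and 2 groups 157. In liver FL_WT vs GC_WT DESeq2 gave 728 and no filter 262 against 463. In liver FL_KO vs GC_KO limma gave 1453 and 1438, no filter 298 and 2 groups 204 against 448, and in FL_KO vs FL_WT 2 groups gave 304 and limma on log2(TPM + 0.1) 326 against 490. The cause was not tested.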
